A study of Mus musculus with 6 samples.

Results

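The genes described here encode the transforming growth factor beta (TGF-beta) ligands Tgfb1, Tgfb2 and Tgfb3, the activin A subunit Inhba, the receptors Tgfbr1, Tgfbr2 and Tgfbr3, the signal carriers Smad3 and Smad7, and Tgfbi, a secreted matrix protein named for its induction by TGF-beta. They were chosen by gene symbol, and all 10 were found among the 23913 genes of the table and passed the filter on low values, a mean level of 1 FPKM or more (FPKM are fragment counts scaled by transcript length and library size). RNA was sequenced from full-thickness incisional wounds in the dorsal skin of female C3H mice (C3Hf/Kam in the study's methods) aged 8 to 10 weeks. The wounds received topical vemurafenib, an inhibitor of the kinase BRAF, at 2 mg every other day, or the vehicle of DMSO in PBS, and were taken on days 2, 6 and 14. The sample labels call the vehicle wounds untreated. There was 1 library per arm and day, 6 in all, with no genetic change named for any group, and the number of mice behind a library is not stated in the sources used here.

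TGF-beta ligands are made as latent dimers that the matrix holds until integrins or proteases free them. The free ligand binds the type II receptor Tgfbr2, which then activates the type I receptor Tgfbr1, and the coreceptor Tgfbr3 (betaglycan) presents ligand to them. The active type I receptor phosphorylates Smad3, which enters the nucleus to switch on target genes, while Smad7 is an inhibitory Smad that blocks the receptor. In skin wounds the pathway is known for drawing in inflammatory cells, for turning fibroblasts into matrix-producing myofibroblasts and for restraining keratinocyte growth, and activin A is induced by wounding.

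On the mouse NCBIM37 (mm9) build used by the authors, Tgfb1 lies at chr7:26472021-26490096 on the plus strand, Inhba at chr13:16103684-16119044 and Tgfbi at chr13:56710920-56740923, both also on the plus strand. Tgfb2 lies at chr1:188447065-188529871, Tgfb3 at chr12:87397694-87419991, Tgfbr2 at chr9:115993415-116084383 and Smad3 at chr9:63494574-63605801, all on the minus strand. Tgfbr1 lies at chr4:47366094-47427803 on the plus strand and Tgfbr3 at chr5:107535589-107718648 on the minus strand. Inhba and Tgfbi were the genes of the group whose decline over time passed the test described further on, and their RefSeq promoters (GRCm38.p6, plus strand, 250 bases before to 50 bases after the start) are shown for that reason. In the Inhba promoter, chr13:16011601-16011900, capitals mark a TATAAA element that begins 91 bases before the start; this motif was chosen after the sequences were seen. In the Tgfbi promoter, chr13:56609336-56609635, capitals mark the 2 copies of the short Smad-binding element CAGAC, both on the opposite strand.
Inhba: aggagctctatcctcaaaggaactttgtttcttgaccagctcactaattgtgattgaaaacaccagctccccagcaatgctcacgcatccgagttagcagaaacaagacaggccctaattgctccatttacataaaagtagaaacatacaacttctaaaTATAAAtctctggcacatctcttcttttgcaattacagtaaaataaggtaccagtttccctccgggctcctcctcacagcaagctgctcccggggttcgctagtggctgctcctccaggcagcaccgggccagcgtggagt
Tgfbi: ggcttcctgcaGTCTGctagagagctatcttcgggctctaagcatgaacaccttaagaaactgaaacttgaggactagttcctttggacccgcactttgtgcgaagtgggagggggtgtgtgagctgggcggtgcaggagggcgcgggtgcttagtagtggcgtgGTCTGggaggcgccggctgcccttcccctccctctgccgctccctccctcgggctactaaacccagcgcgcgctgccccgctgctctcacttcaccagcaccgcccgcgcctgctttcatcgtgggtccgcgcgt

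Promoters of 7 of the 10 genes were in the table searched. On either strand, CAGAC was found in those of 4 genes (Tgfb2, Tgfbi, Tgfbr1 and Tgfbr2) and in 49.6% of all 32851 promoters. The palindromic Smad element GTCTAGAC, which contains no CAGAC, and the AP-1 site TGANTCA were found in 0 of the 7, and in 0.213% and 7.81% of all promoters. TATAAA on the gene's own strand was found in Inhba and Tgfb2, and in 8.32% of all promoters.

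The number of genes at 1 FPKM or more lay between 12746 and 13062 per library. The values carry no read counts, so the depth behind them is unknown. In 4 of the 6 libraries the values have the digit form of an average of 2 numbers, but not in the vemurafenib library of day 2 or the vehicle library of day 14. What was averaged is not known, each is counted here as 1 library, and the fits below gave all 6 the same weight. Averaged and single values could differ in their spread, which was not tested. Skin markers were present in every library, with a summed FPKM of 7 basal keratinocyte markers between 3224 and 13254. Skeletal muscle markers were present too, with sums of 7 genes between 1608 and 19707 FPKM. In such tissue RNA, fewer cells of a type and less RNA per cell cannot be told apart. The arms of 1 day were compared as log2 ratios of vemurafenib to vehicle after adding 0.1 FPKM, with no test, because each arm had 1 library on a day. Days were compared with limma, with arm as a term, so that the 2 arms of a day stand in for replicates; a gene is said to rise or fall between days only at an adjusted p under 0.05 over all 13392 genes past the filter.

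**Figure D1:**
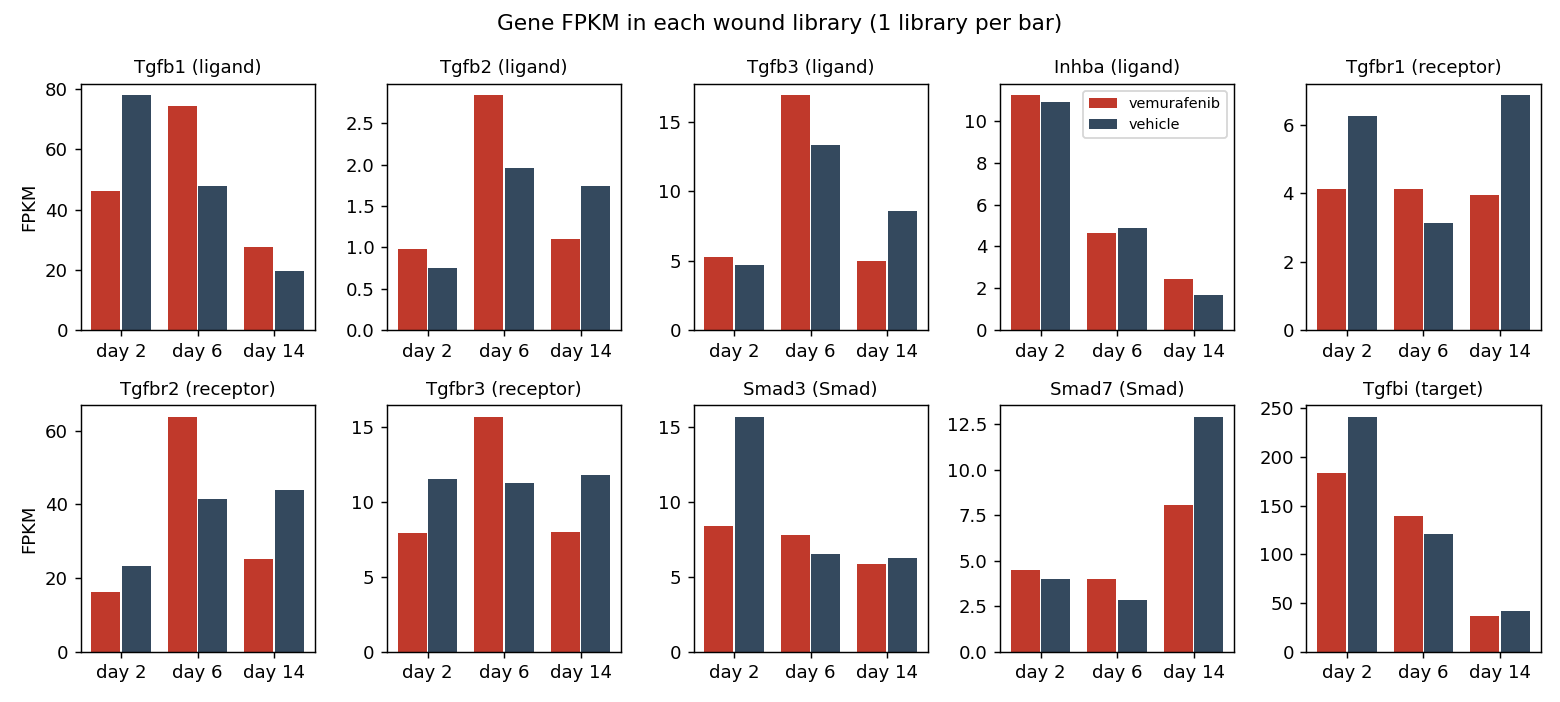
FPKM of each gene (vertical axis, starting at 0) on days 2, 6 and 14 (horizontal axis), with vemurafenib wounds in red and vehicle wounds in blue-grey; each bar is 1 library, so there is no error bar. Inhba and Tgfbi were highest on day 2 and lowest on day 14 in both arms, while Tgfb2 and Tgfb3 were highest on day 6 in both arms.

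Among the ligands, Tgfb1 was by far the most abundant. Tgfb1 was at 46.2, 74.3 and 27.6 FPKM in vemurafenib wounds and at 78.0, 47.8 and 19.4 FPKM in vehicle wounds on days 2, 6 and 14. Both day 14 libraries were below all 4 earlier ones, and the peak fell on day 6 with vemurafenib and on day 2 with vehicle. The log2 difference of day 14 from day 6, common to the arms, was -1.36 ± 0.40 (SE; adjusted p = 0.131), and that of day 14 from day 2 was -1.37 ± 0.40 (adjusted p = 0.0627), so neither passed. Between day 6 and day 2 the arms moved in opposite directions, by a log2 change of 0.68 with vemurafenib and -0.70 with vehicle.

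Tgfb3, the isoform tied to scar-poor healing in animal studies, had its maximum on day 6. Tgfb3 was at 5.29, 16.9 and 4.96 FPKM in vemurafenib wounds and at 4.73, 13.3 and 8.60 FPKM in vehicle wounds on days 2, 6 and 14. Both day 6 libraries were above the other 4. Its log2 difference of day 6 from day 2 was 1.57 ± 0.35 (adjusted p = 0.0619), just short of the threshold; it passed with upper quartile scaling (adjusted p = 0.0423) and with rescaling to the same total without the 100 most abundant genes (adjusted p = 0.0296). Tgfb2, a ligand that needs Tgfbr3 for efficient binding, was the scarcest gene of the group. It was at 0.983, 2.84 and 1.10 FPKM in vemurafenib wounds and at 0.754, 1.96 and 1.74 FPKM in vehicle wounds, again with both day 6 libraries highest, and its day 6 difference from day 2 was 1.35 ± 0.48 (adjusted p = 0.207).

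Tgfb1 made up most of the ligand FPKM in every library. Of the summed FPKM of Tgfb1, Tgfb2 and Tgfb3, Tgfb1 made up 88.0%, 79.0% and 82.0% in vemurafenib wounds and 93.4%, 75.8% and 65.3% in vehicle wounds on days 2, 6 and 14. Tgfb3 made up 10.1%, 18.0% and 14.8% with vemurafenib and 5.66%, 21.1% and 28.9% with vehicle. The arms lay furthest apart on day 14, when Tgfb1 exceeded Tgfb3 5.55-fold with vemurafenib and 2.26-fold with vehicle. These shares are of FPKM, which are scaled by transcript length, and with 1 library per bar they were not tested.

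**Figure D2:**
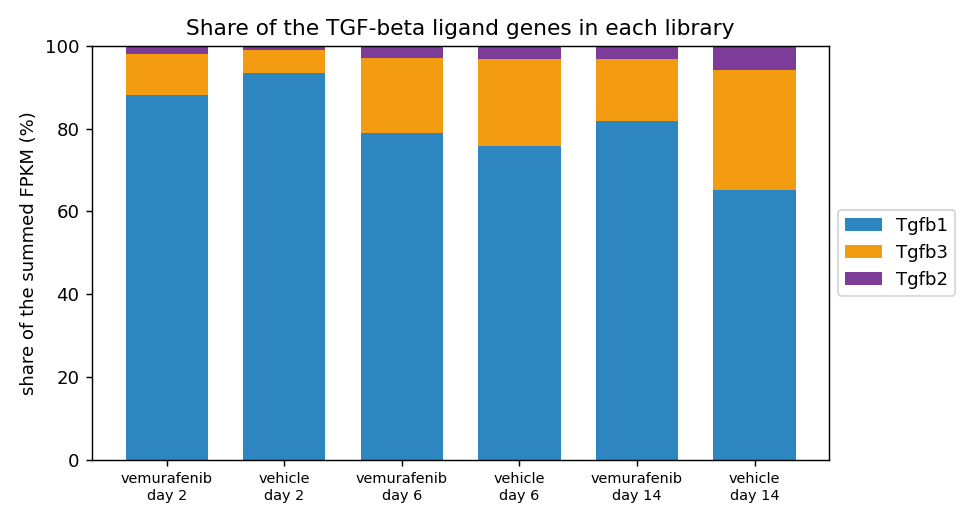
Share of the summed FPKM of the TGF-beta ligand genes (vertical axis, percent) held by Tgfb1, Tgfb3 and Tgfb2 in each of the 6 libraries (horizontal axis). The Tgfb1 share was lowest, at 65.3%, and the Tgfb3 share highest, at 28.9%, in the vehicle wound of day 14.

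Inhba, which encodes the subunit of activin A, declined through the course in both arms. Inhba was at 11.2, 4.66 and 2.43 FPKM in vemurafenib wounds and at 10.9, 4.88 and 1.65 FPKM in vehicle wounds on days 2, 6 and 14. The libraries of the 3 days did not overlap, and on days 2 and 6 the log2 ratios of vemurafenib to vehicle were 0.04 and -0.06. It fell between day 2 and day 14 by a log2 difference of -2.41 ± 0.30 (adjusted p = 0.00321). The steps of -1.20 ± 0.30 to day 6 (adjusted p = 0.0871) and -1.21 ± 0.30 from there to day 14 (adjusted p = 0.0898) did not pass singly.

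Tgfbi, which encodes an extracellular protein that links collagens to integrins, was the most abundant gene of the group and followed the same course. Tgfbi was at 184, 139 and 37.0 FPKM in vemurafenib wounds and at 241, 120.4 and 41.5 FPKM in vehicle wounds on days 2, 6 and 14. Here too the libraries of the 3 days did not overlap. It fell by -2.42 ± 0.30 on the log2 scale between day 2 and day 14 (adjusted p = 0.00321) and by -1.72 ± 0.30 between day 6 and day 14 (adjusted p = 0.0362), while the step from day 2 to day 6 was -0.70 ± 0.30 (adjusted p = 0.312).

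The test thus called 2 of the 10 genes between day 2 and day 14, against 17.9% of all genes; both were lower on day 14, where it called 10.2% of all genes lower and 7.71% higher. Without adjustment, 5 of the 10 had a p under 0.05 there, against 31.4%. It called 1 lower on day 14 than on day 6, against 1.8% of all genes lower, 1.84% higher and 3.64% in all, and 5 of the 10 had an unadjusted p under 0.05, against 19.2%. Between day 2 and day 6 it called 0 of the 10, against 4.75% of all genes; 4 of the 10 had an unadjusted p under 0.05 there, against 17.2%. Without the vehicle day 14 library, or without the vemurafenib day 14 library, the fit called 0 of the 10 in each contrast between days, and 0 of all 13392 genes. The Tgfbi difference of day 14 from day 6 also lost its call without the vemurafenib day 6 library (-1.48, adjusted p = 0.245) and with no mean-variance trend in the fit (adjusted p = 0.0558). Tgfb1 passed for day 14 against day 2 without the vemurafenib day 2 library (-2.03, adjusted p = 0.0126), without the vemurafenib day 6 library (adjusted p = 0.0435) and without the vehicle day 6 library (adjusted p = 0.0426), and for day 14 against day 6 without either day 2 library (adjusted p = 0.0430 without vemurafenib and 0.0390 without vehicle).

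**Figure D3:**
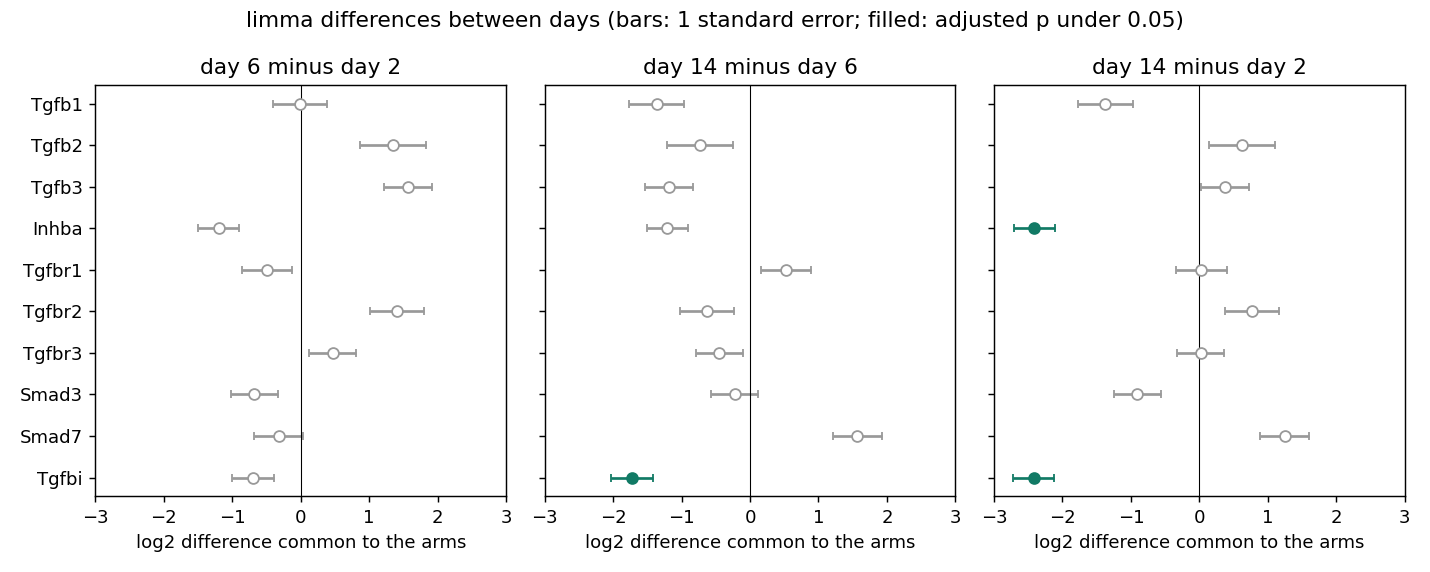
Log2 difference between days common to both arms (horizontal axis) for each gene (vertical axis), from the limma fit of all 6 libraries; bars are 1 standard error and filled points have an adjusted p under 0.05. Filled points are Inhba and Tgfbi on the right (-2.41 and -2.42) and Tgfbi in the middle (-1.72).

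The type II receptor gene outnumbered the type I receptor gene in every library. Tgfbr2 was at 16.2, 63.7 and 25.1 FPKM in vemurafenib wounds and at 23.1, 41.4 and 44.0 FPKM in vehicle wounds on days 2, 6 and 14. Both day 2 libraries were the lowest, and the vemurafenib library of day 6 was the highest of the 6. Its difference of day 6 from day 2 was 1.40 ± 0.39 on the log2 scale (adjusted p = 0.118); without the vehicle day 6 library it was 2.04 (adjusted p = 0.0466). Tgfbr1 was at 4.13, 4.12 and 3.94 FPKM in vemurafenib wounds and at 6.27, 3.12 and 6.86 FPKM in vehicle wounds, so that its level was flat with vemurafenib and lowest on day 6 with vehicle. On the scale of FPKM, Tgfbr2 exceeded Tgfbr1 3.92-, 15.4- and 6.36-fold in vemurafenib wounds and 3.69-, 13.3- and 6.41-fold in vehicle wounds on days 2, 6 and 14.

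Tgfbr3, the betaglycan coreceptor, was at 7.94, 15.7 and 8.01 FPKM in vemurafenib wounds and at 11.6, 11.3 and 11.8 FPKM in vehicle wounds on days 2, 6 and 14. It was near level over time with vehicle, and the vemurafenib libraries lay on both sides of that level. Its differences between days were between -0.45 and 0.47 on the log2 scale, with an SE of 0.34, and none passed.

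For Smad3 and its inhibitory counterpart Smad7, no difference between days passed the test, and Smad3 was highest early and Smad7 late. Smad3 was at 8.38, 7.79 and 5.88 FPKM in vemurafenib wounds and at 15.7, 6.51 and 6.29 FPKM in vehicle wounds on days 2, 6 and 14. The vehicle library of day 2 stood above the other 5, and the difference of day 14 from day 2 was -0.90 ± 0.35 (adjusted p = 0.130). Smad7 was at 4.49, 3.98 and 8.07 FPKM in vemurafenib wounds and at 4.02, 2.86 and 12.9 FPKM in vehicle wounds, with both day 14 libraries above the other 4. Its difference of day 14 from day 6 was 1.57 ± 0.35 (adjusted p = 0.0717) and of day 14 from day 2 was 1.25 ± 0.35 (adjusted p = 0.0574). The second passed with upper quartile scaling (adjusted p = 0.0398) and with rescaling to the same total without the 100 most abundant genes (adjusted p = 0.0339).

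By levels alone, the 2 libraries of day 6 did not overlap with those of day 2 in 8 of the 10 genes, against 57.2% of all genes. Of these, Tgfb2, Tgfb3 and Tgfbr2 were higher on day 6 and 5 were lower, against 29.5% and 27.6% of all genes. The 5 include Tgfbr1, which was almost level with vemurafenib, at 4.13 FPKM on day 2 and 4.12 FPKM on day 6. Day 14 did not overlap with day 6 in 7 genes, against 53.1%; Smad7 was higher on day 14 and 6 were lower, against 27.6% and 25.4%. Day 14 did not overlap with day 2 in 7 genes, against 64.7%; Tgfb2, Tgfbr2 and Smad7 were higher on day 14 and 4 were lower, against 35.2% and 29.5%. Across the 6 libraries, which share their days, Pearson's r of log2 FPKM was 0.96 between Tgfb2 and Tgfb3, 0.92 between Tgfb2 and Tgfbr2, 0.94 between Inhba and Tgfbi and -0.85 between Tgfb1 and Smad7.

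No gene of the group differed by 2-fold between the arms on any day. On day 2, 0 of the 10 were at least 2-fold apart, against 4.69% of all genes (1.43% higher and 3.26% lower with vemurafenib); on day 6, 0 against 10.3%; on day 14, 0 against 11.3%. The median log2 ratio of vemurafenib to vehicle over the 10 genes was -0.45 on day 2, 0.43 on day 6 and -0.59 on day 14, beside medians of 0.00, 0.04 and -0.12 over all genes. On day 2, 4 genes were above 0 and 6 below; on day 6, 9 above and 1 below; on day 14, 2 above and 8 below. Of all genes, 49.8%, 54.5% and 42.4% had a ratio above 0 on these days.

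The receptor genes shared the swing from day to day. The ratios of Tgfbr1 were -0.59, 0.39 and -0.78 on days 2, 6 and 14, those of Tgfbr2 -0.51, 0.62 and -0.81, and those of Tgfbr3 -0.54, 0.47 and -0.55. With Smad3 and Tgfbi, these made 5 of the 10 genes that were lower with vemurafenib on day 2, higher on day 6 and lower on day 14, a course found in 17% of all genes. Smad3 had the lowest ratio of day 2, at -0.90, and ratios of 0.25 and -0.10 on the later days. On day 14 the ratios of Smad3 and Tgfbi (-0.16) were near the median of all genes, -0.12. That of Smad3 had the other sign under 2 alternatives, so the count of 5 rests partly on small ratios.

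Tgfb1 differed from this course on day 14, with ratios of -0.75, 0.64 and 0.50 on days 2, 6 and 14. Inhba was the only other gene of the group with a ratio above 0 on day 14, at 0.53. Tgfb2, Tgfb3 and Smad7 were above 0 on day 2 (0.34, 0.16 and 0.16) and on day 6 (0.52, 0.34 and 0.46) and below 0 on day 14 (-0.62, -0.78 and -0.67). The limma fit of a difference common to the 3 days, with day as a block, called 0 of the 10 genes, against 0.00747% of all genes; 0 had an unadjusted p under 0.05, against 2.26%. The smallest unadjusted p was 0.317, for Tgfbr1 (-0.33 ± 0.30), and the differences lay between -0.33 and 0.17.

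**Figure D4:**
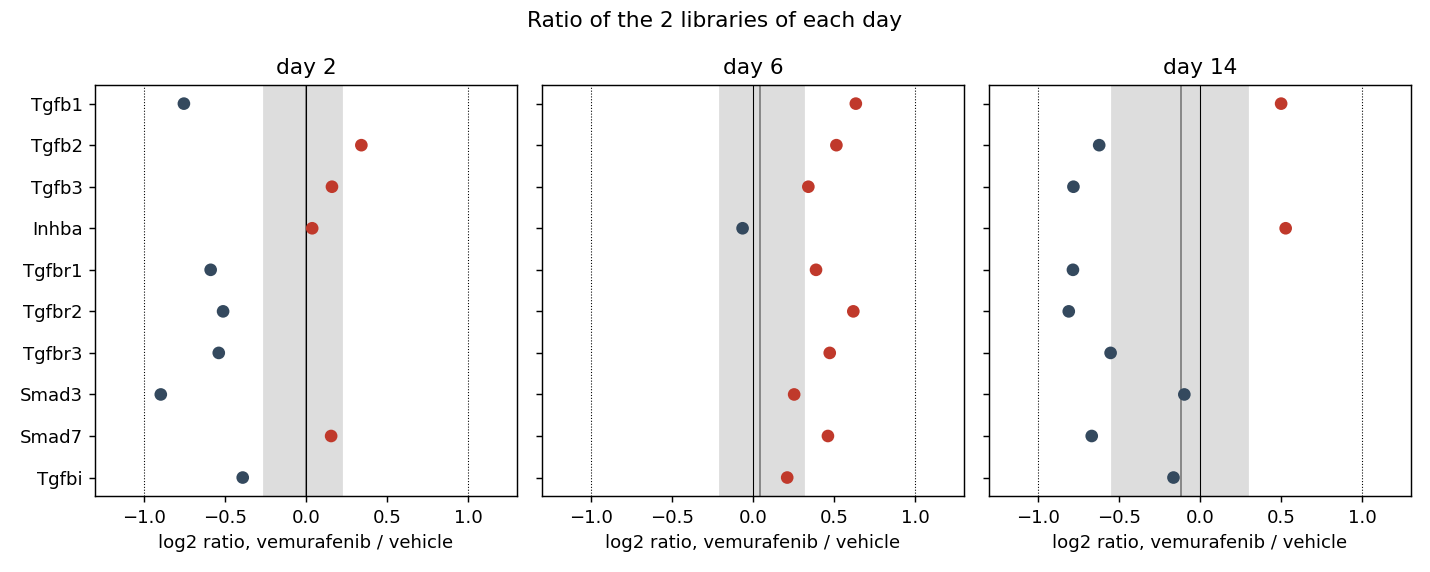
Log2 ratio of vemurafenib to vehicle (horizontal axis) of each gene (vertical axis) on days 2, 6 and 14; each point compares 2 libraries, red above 0 and blue-grey below. The grey band runs from the lower to the upper quartile of all 13392 genes, the grey line is their median and dotted lines mark 2-fold. No point reached a dotted line, and all 3 receptor genes were below 0 on days 2 and 14 and above 0 on day 6.

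Markers of macrophages, fibroblasts and endothelial cells moved between the arms in the same direction as the receptor genes on days 2 and 6. Other markers did not. On day 2, 6 of 6 neutrophil, 6 of 7 basal keratinocyte and 6 of 7 skeletal muscle markers were higher with vemurafenib (median ratios 0.28, 0.09 and 0.13). On day 6, 3 neutrophil markers were higher and 3 lower. Of 13 macrophage and monocyte markers, 12 were lower with vemurafenib on day 2, 13 were higher on day 6 and 8 were lower on day 14, with median ratios of -0.70, 1.39 and -0.21. Their summed level was 2073, 2576 and 785 FPKM in vemurafenib wounds and 2686, 1064 and 497 FPKM in vehicle wounds on days 2, 6 and 14. The sums and Tgfb1 shared their 2 highest libraries, vehicle day 2 and vemurafenib day 6, and their 2 lowest, both of day 14. The sums of the endothelial markers, given below, had the same highest and lowest libraries. Of 9 fibroblast markers, 9 were lower on day 2, 7 were higher on day 6 and 6 were lower on day 14, with median ratios of -1.07, 0.24 and -0.14. The fibroblast sums were 204, 1110 and 571 FPKM with vemurafenib and 422, 1007 and 678 FPKM with vehicle. None of these markers was at 0 in any library.

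The 7 endothelial markers were all lower with vemurafenib on day 2 and all higher on day 6 (median ratios -0.40 and 0.48). On day 14, 6 of these markers were higher and 1 was lower (median ratio 0.24), whereas Tgfbr1, Tgfbr2 and Tgfbr3 were lower. The endothelial sums lay between 47.7 and 97.3 FPKM with vemurafenib and between 39.3 and 101 FPKM with vehicle. The 9 differentiated keratinocyte markers were all lower with vemurafenib on days 6 and 14 (median ratios -1.51 and -1.01; sums between 2534 and 8798 FPKM with vemurafenib and between 4116 and 25167 FPKM with vehicle). The 7 basal keratinocyte markers were also all lower on day 6 (median ratio -0.66), with sums of 4748 FPKM with vemurafenib and 11943 FPKM with vehicle. On day 14, 4 of these basal markers were higher and 3 lower (median ratio 0.23). The 7 skeletal muscle markers were all higher with vemurafenib on days 6 and 14 (median ratios 1.28 and 1.76). The sums of 5 platelet markers were 621, 561 and 82.6 FPKM with vemurafenib and 867, 219 and 78.6 FPKM with vehicle, and Gp9 was listed at 0 in both day 14 libraries. Most of each sum was Pf4, at 577, 536 and 57.9 FPKM with vemurafenib and 812, 182 and 64.5 FPKM with vehicle. Of the 4 platelet markers past the filter, 4 were lower with vemurafenib on day 2. On day 6, 3 were higher and 1 was lower, which was Gp1bb (16.7 FPKM with vemurafenib and 33.9 FPKM with vehicle). On day 14, 2 were higher and 2 lower. Over time, 6 of 6 neutrophil, 7 of 7 skeletal muscle and 7 of 13 macrophage and monocyte markers fell between day 2 and day 14. So did 2 of 4 platelet, 2 of 7 basal keratinocyte and 1 of 9 differentiated keratinocyte markers, against 10.2% of all genes. In the same contrast 3 of 9 fibroblast markers rose, against 7.71%, and 0 of 7 endothelial markers were called. Between day 2 and day 6, 4 of 9 fibroblast markers rose, against 2.93%, and 5 neutrophil and 2 macrophage markers fell, against 1.81%. The part of these cell types in the values of the TGF-beta genes was not tested.

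Of 14 genes that store and release TGF-beta, 13 passed the filter. Between day 2 and day 14, 2 of these rose and 2 fell, against 7.71% and 10.2% of all genes; between day 2 and day 6, 1 rose and 1 fell, against 2.93% and 1.81%; between day 6 and day 14, limma called 0, and 6 had an unadjusted p under 0.05, against 19.2%. Between day 2 and day 14, the latent TGF-beta binding protein genes Ltbp3 and Ltbp4 rose by log2 differences of 1.23 ± 0.29 and 1.77 ± 0.33 (adjusted p = 0.0319 and 0.0132). Thbs1, the thrombospondin gene whose product can activate latent TGF-beta, fell by -2.86 ± 0.56 (adjusted p = 0.0162), and Lrrc32, which encodes a cell-surface anchor of latent TGF-beta, by -1.81 ± 0.40 (adjusted p = 0.0254). Between day 2 and day 6, Fbn1, the microfibril gene that tethers the latent complex, rose by 2.34 ± 0.36 (adjusted p = 0.0196) and Thbs1 fell (adjusted p = 0.0373), to 23.2 FPKM on day 6 with vemurafenib and 7.42 FPKM with vehicle, against 99.1 and 113 FPKM on day 2. As for all genes, none of the calls between days given here and for the target genes passed without either day 14 library.

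Between the arms, 3 of these 13 genes were at least 2-fold lower with vemurafenib on day 2 and 2 were at least 2-fold higher on day 6, against 3.26% and 5.29% of all genes. On day 2, Emilin1, which encodes an inhibitor of TGF-beta processing, was at 6.43 FPKM with vemurafenib and 18.4 FPKM with vehicle, the protease gene Bmp1 at 19.8 and 43.4 FPKM, and Lrrc32 at 8.96 and 18.3 FPKM. On day 6, Thbs1 was at 23.2 FPKM with vemurafenib and 7.42 FPKM with vehicle, and Ltbp2 at 5.84 and 2.41 FPKM.

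All 24 listed target genes of the pathway passed the filter. Between day 2 and day 6, 7 rose and 2 fell, against 2.93% and 1.81% of all genes. Those that rose were the collagen genes Col1a1 (4.27 ± 0.41, adjusted p = 0.00500), Col1a2, Col3a1 and Col5a1, the fibronectin gene Fn1 (3.53 ± 0.38, adjusted p = 0.00704), the smooth muscle actin gene Acta2 of myofibroblasts (1.94 ± 0.30, adjusted p = 0.0197) and the protease gene Adam12. Col1a1 was at 102, 3026 and 820 FPKM in vemurafenib wounds and at 173, 2169 and 1026 FPKM in vehicle wounds on days 2, 6 and 14, and the 3 days did not overlap.

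Between day 2 and day 14, 8 targets rose and 6 fell, against 7.71% and 10.2% of all genes. The urokinase receptor gene Plaur fell by -5.21 ± 0.39 (adjusted p = 0.000420). It was at 225, 70.5 and 5.50 FPKM in vemurafenib wounds and at 196, 28.0 and 5.65 FPKM in vehicle wounds. The protease inhibitor gene Timp1 fell by -4.56 ± 0.46 (adjusted p = 0.00134), and Junb, Itga5 and Snai1 were also among those that fell. Cdkn2b, a cell cycle inhibitor gene induced by TGF-beta in epithelium, rose by 2.00 ± 0.32 (adjusted p = 0.00758). Between day 6 and day 14, 0 of the 24 targets rose and 5 fell, against 1.84% and 1.8% of all genes. Among the 5 were Timp1 (-3.58 ± 0.46, adjusted p = 0.0119) and Plaur (-2.97 ± 0.39, adjusted p = 0.0129).

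**Figure D5:**
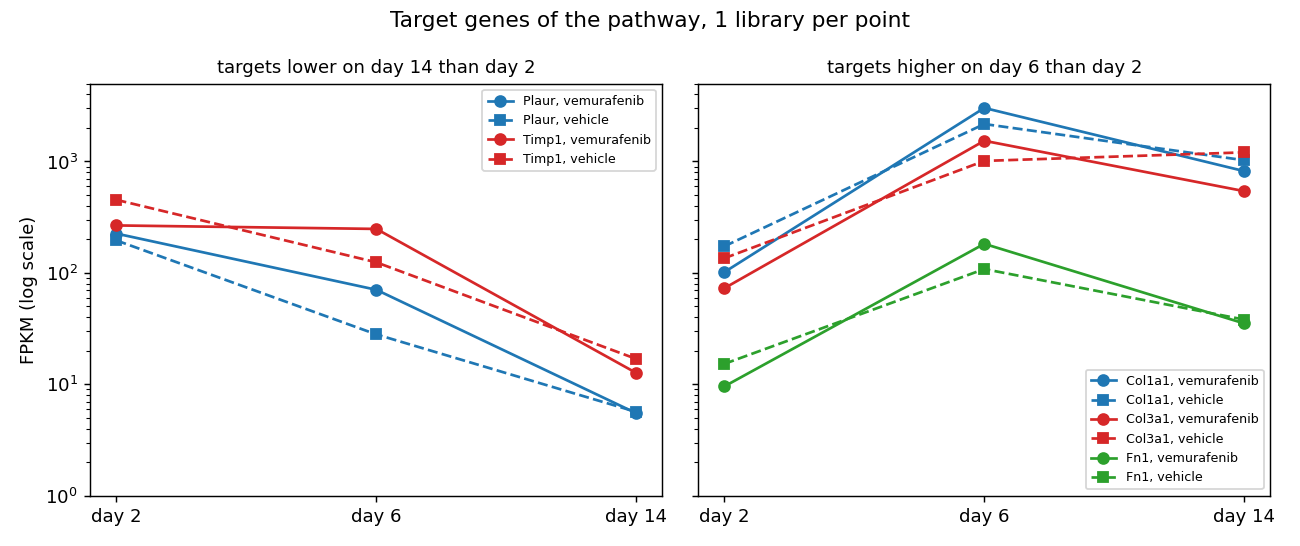
FPKM on a log axis (vertical) of 5 pathway target genes on days 2, 6 and 14 (horizontal); solid lines with circles are vemurafenib and dashed lines with squares are vehicle, and each point is 1 library. Plaur and Timp1 (left) ended on day 14 between 5.50 and 16.9 FPKM, while Col1a1, Col3a1 and Fn1 (right) were higher on day 6 than on day 2 in both arms.

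Between the arms, 4 of the 24 targets were at least 2-fold higher with vemurafenib on day 6 and 0 lower, against 5.29% and 5.03% of all genes. Among these, Plaur was at 70.5 FPKM with vemurafenib and 28.0 FPKM with vehicle, the connective tissue growth factor gene Ctgf at 25.8 and 11.3 FPKM, and Junb at 410.2 and 204 FPKM. The median log2 ratio of the 24 targets was -0.35 on day 2, 0.56 on day 6 and -0.23 on day 14. On day 14, 2 were at least 2-fold higher with vemurafenib, against 3.64% of all genes, and 5 lower, against 7.66%. The 2 were the BMP-responsive genes Id1 (178 FPKM with vemurafenib and 84.2 FPKM with vehicle) and Id3 (335 and 157 FPKM). Among the 5 were Postn (113 and 266 FPKM), Adam12 (2.13 and 5.03 FPKM), the collagen crosslinking enzyme gene Lox (11.6 and 26.4 FPKM) and Col3a1 (542 and 1208 FPKM).

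By the correlation of log2 FPKM over the 6 libraries, the genes most like Tgfb1 among the 9177 ranked (mean level of 5 FPKM or more, without small RNA genes and the 10 genes themselves) were Emp3, Cmtm7 and Crip1 (r = 0.996, 0.995 and 0.993). Those most like Inhba were H2-T9, Gripap1 and Psme2 (r = 0.998, 0.998 and 0.997), and those most like Tgfbi were Tnip1, Cpne2 and Samhd1 (r = 0.998, 0.998 and 0.996). With 6 libraries such values are common: 166, 331 and 297 genes had an r of at least 0.95 with Tgfb1, Inhba and Tgfbi.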

How the data were processed

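RNA-seq of 6 mouse wound libraries was used, 1 per arm and day. The deposited values are FPKM, which the authors made by aligning reads to mm9 with TopHat and running cuffquant (fragment bias, multi-read and compatible-hits options) and cuffnorm. TopHat2 and Cuffdiff also stand in the processing notes of the submitters. The paper names paired-end reads and the labels single-end reads. Of 23940 rows, 27 with symbols turned into dates were left out.

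Log2 values were taken after adding 0.1 FPKM, and genes whose mean reached 1 FPKM were kept. One model with day and arm was fitted to all genes with limma 3.58.1 (R 4.3.3; mean-variance trend, Benjamini-Hochberg adjustment), with 2 residual degrees of freedom among 6 libraries, and was tested on simulated data. Its error holds how far the arms differ in their course. Genes to name were all 10 listed genes, up to 6 genes per pathway list and comparison, the largest first, that were 2-fold apart between arms or passed the test, and the 3 genes most correlated with Tgfb1, Inhba and Tgfbi; the text names some of them. Acta2, Cdkn2b, Junb, Itga5, Snai1, Id1, Gp9 and Fst were named after their values were seen. One target gene is counted in its list but not reported here. The genes and lists were chosen with earlier results of these data known. Alternatives were other pseudocounts, filters, scalings and left-out days, and, added after seeing the data, left-out libraries. Python 3.11.15 was used for the rest.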

Additional observations from a re-analysis of the deposited data

Results flagged for a closer look

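For 2 genes the ratio of the arms changed direction between days, with at least 1.5-fold on both sides. Tgfb1 had a log2 ratio of vemurafenib to vehicle of 0.64 on day 6 and -0.75 on day 2, a difference of 1.39. Tgfbr2 had a ratio of -0.81 on day 14 and 0.62 on day 6, a difference of -1.43. Each ratio rests on 2 libraries, and the difference between days was not tested, since no replicate of an arm on a day was used. The signs of these ratios were the same under each of the 6 other pseudocounts and scalings, but not every size stayed at 1.5-fold. Tgfb1 on day 2 fell short of it with rescaling to the same total (-0.56). Tgfbr2 on day 6 fell short with upper quartile scaling (0.57).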

How the results depend on the processing

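The median log2 ratio of the 10 genes on day 6 was 0.78 with FPKM rescaled to the same total, against 0.43 as deposited; that scaling moved the median of all genes to 0.18, 0.40 and -0.25 on days 2, 6 and 14, and Inhba on day 6 to a ratio of 0.29. Smad3 on day 14 was above 0 under 2 alternatives, at up to 0.02. The number of the 10 genes at least 2-fold apart between the arms stayed at 0 in each alternative, as did the number called by the arm fit, also without a day term and with any day left out. For day 6 against day 2, 1 gene (Tgfb3) was called with upper quartile scaling and with rescaling without the 100 most abundant genes, against 0. For day 14 against day 6, 0 were called without the low-value filter or without the trend, against 1, and for day 14 against day 2, 0 with no filter, against 2. Leaving out each library in turn gave 0 to 1 calls for day 6 against day 2, 0 to 2 for day 14 against day 6 and 0 to 3 for day 14 against day 2. With no filter the fit called 12 of 23913 genes for day 14 against day 2, against 2402 of 13392. A fit between days within 1 arm had no residual degrees of freedom, so its values are given with no test. The labels give no replicate numbers, and the arms are paired by day alone, through the day term of the arm fit.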

Other observations

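Of 11 inhibitor genes of the wider TGF-beta and BMP family, only Bambi passed the test between day 2 and day 14, against 17.9% of all genes. Bambi, which encodes a decoy receptor, was at 0.779, 4.03 and 15.3 FPKM in vemurafenib wounds and at 0.804, 4.91 and 25.7 FPKM in vehicle wounds on days 2, 6 and 14, and rose by a log2 difference of 4.49 ± 0.31 between day 2 and day 14 (adjusted p = 0.000323). Of 11 other Smad and cofactor genes past the filter, 2 rose and 1 fell between day 2 and day 14, against 7.71% and 10.2% of all genes. Smad6, an inhibitory Smad of the BMP branch, was at 2.84, 4.46 and 14.3 FPKM with vemurafenib and at 2.25, 5.24 and 18.1 FPKM with vehicle, and rose by 2.62 ± 0.30 (adjusted p = 0.00224). Smad5, a BMP-branch Smad, rose by 1.28 ± 0.27 (adjusted p = 0.0213), and the corepressor gene Tgif1 fell by -1.27 ± 0.27 (adjusted p = 0.0226). Without either day 14 library, 0 genes passed in these contrasts.

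The ratio of Smad3 to Smad7 in FPKM was 1.87, 1.96 and 0.728 in vemurafenib wounds and 3.90, 2.28 and 0.488 in vehicle wounds on days 2, 6 and 14. The ratio of Inhba to Fst, the gene of its binding protein follistatin, was 0.529, 0.253 and 0.259 with vemurafenib and 0.669, 0.344 and 0.154 with vehicle. On day 14, 2 of 9 other activin ligand and receptor genes were at least 2-fold higher with vemurafenib and 1 was lower. Of 11 other Smad and cofactor genes, 0 were higher and 3 lower. Of all genes, 3.64% were higher and 7.66% lower. The growth factor gene Gdf15, a distant relative of the ligands, was at 1.70 FPKM with vemurafenib and 0.185 FPKM with vehicle on day 14. The vehicle value is near the 0.1 FPKM added to all values. On the same day the activin receptor gene Acvr2a was at 2.64 FPKM with vemurafenib and 6.88 FPKM with vehicle, and the related receptor gene Acvr2b at 2.15 and 0.854 FPKM. The receptor anchor gene Zfyve9 was then at 6.00 and 16.0 FPKM and the corepressor gene Skil at 2.50 and 6.13 FPKM. For Acvr2a, Zfyve9 and Skil, the vehicle library of day 14 was the highest of the 6.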
